A study of Mus musculus with 6 samples.

Results

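The genes described here encode receptors that bind the constant part of antibodies, the adaptor proteins and the kinase through which they signal, and related receptors of myeloid cells. They were chosen by name as 10 genes (Fcer1g, Tyrobp, Fcgr1, Fcgr2b, Fcgr3, Fcgr4, Syk, Clec7a, Sirpa and Pirb), and all 10 were found among the 14015 gene symbols of the deposited expression table. The table comes from bulk RNA sequencing of polyA-selected RNA from mouse muscle, taken 7 days after volumetric muscle loss, a surgical injury that received no implant. The muscle was the quadriceps. Per the paper's surgical methods, the defect of the control group was filled with sterile saline, and both legs were operated on. The 6 samples were from 3 WT mice, titled B6, and 3 mice labelled GATA-1 mutant, which the study calls ΔdblGATA mice and uses as an eosinophil-deficient strain. All 6 samples were from injured mice. The surgical methods describe the WT animals as young adult female C57BL/6 mice and state no age for the mutant mice. The value used here is the authors' mean log2 CPM (read counts scaled to the library total, on a log2 scale) of each gene over all samples, so each number below describes both genotypes together. Values for single mice were not analysed here, and the columns of the authors' own genotype comparison were not used, so no difference between genotypes is given. A mean of this kind has no SD, and the depth of each sample is unknown, so neighbouring genes in an order of levels cannot be tested against each other. In whole muscle, fewer cells of a type and less RNA per cell cannot be told apart.

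As background, activating Fc receptors of myeloid cells bind IgG and rely on the Fc receptor gamma chain, the product of Fcer1g, for assembly and signalling. The gamma chain and DAP12, the product of Tyrobp, each carry an immunoreceptor tyrosine-based activation motif (ITAM). Src family kinases phosphorylate the motif and the kinase Syk then docks on it. Inhibitory receptors such as FcγRIIB (Fcgr2b), PIR-B (Pirb) and SIRPα (Sirpa) instead carry inhibitory tyrosine motifs that recruit phosphatases. Dectin-1, the product of Clec7a, recognizes β-glucans and signals to Syk through a single-tyrosine form of the ITAM. These receptors are found on macrophages and other phagocytes, among other cells. Which cells of the injured muscle express them was not tested here.

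The 2 genes with the most shared sequence among the IgG receptors were Fcgr2b and Fcgr3, whose stretch of greatest likeness is shown because it bears on how reads can be assigned between an inhibitory and an activating receptor. In GENCODE M21 (GRCm38) the longest coding transcripts of the 2 genes have an identical run of 129 bases. The 209 bases below hold that run with 40 bases on each side, 5′ to 3′ on the transcript, from base 362 to 570 of the Fcgr2b transcript and from base 273 to 481 of the Fcgr3 transcript. Capitals mark the bases that differ, which number 5. Both windows lie within the coding part, which runs from base 125 to 1144 in Fcgr2b and from base 51 to 851 in Fcgr3.
Fcgr2b: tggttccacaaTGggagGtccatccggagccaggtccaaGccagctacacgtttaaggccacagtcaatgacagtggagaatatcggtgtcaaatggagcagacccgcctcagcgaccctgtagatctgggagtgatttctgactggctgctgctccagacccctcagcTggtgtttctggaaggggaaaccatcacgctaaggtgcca
Fcgr3: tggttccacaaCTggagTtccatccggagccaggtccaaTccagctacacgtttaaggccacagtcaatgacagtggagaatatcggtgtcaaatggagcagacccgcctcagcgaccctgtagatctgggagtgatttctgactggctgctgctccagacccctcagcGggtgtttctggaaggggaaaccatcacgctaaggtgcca
Aligned over the coding part, Fcgr2b and Fcgr3 had 671 identical bases of 781 (85.9%). The other pairs among Fcgr1, Fcgr2b, Fcgr3 and Fcgr4 had between 60.5% and 66.2%.

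The adaptor gene Fcer1g had the highest level of the 10 genes once transcript length was taken into account, and the receptor gene Fcgr4 the lowest. As deposited, without division by length, Sirpa was highest at 6.29 log2 CPM and Fcgr4 lowest at 1.71. On that scale Fcer1g, at 4.36, was below Sirpa, Fcgr2b, Fcgr3 and Syk. Levels were compared between genes per kilobase of the longest coding transcript, as the mean log2 CPM minus the log2 of that length in kilobases. On this scale the 10 genes ran from 1.38 to 4.91, a ratio of 11.5 between Fcer1g and Fcgr4, with a median of 2.90. The median of the 13944 listed genes with a known length was 2.28, with quartiles of 0.53 and 3.78. Above that median were 6 of the 10 genes, and 4 of them, Fcer1g, Sirpa, Tyrobp and Fcgr3, were above the upper quartile. Below the median were Pirb, Syk, Fcgr1 and Fcgr4.

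**Figure D1:**
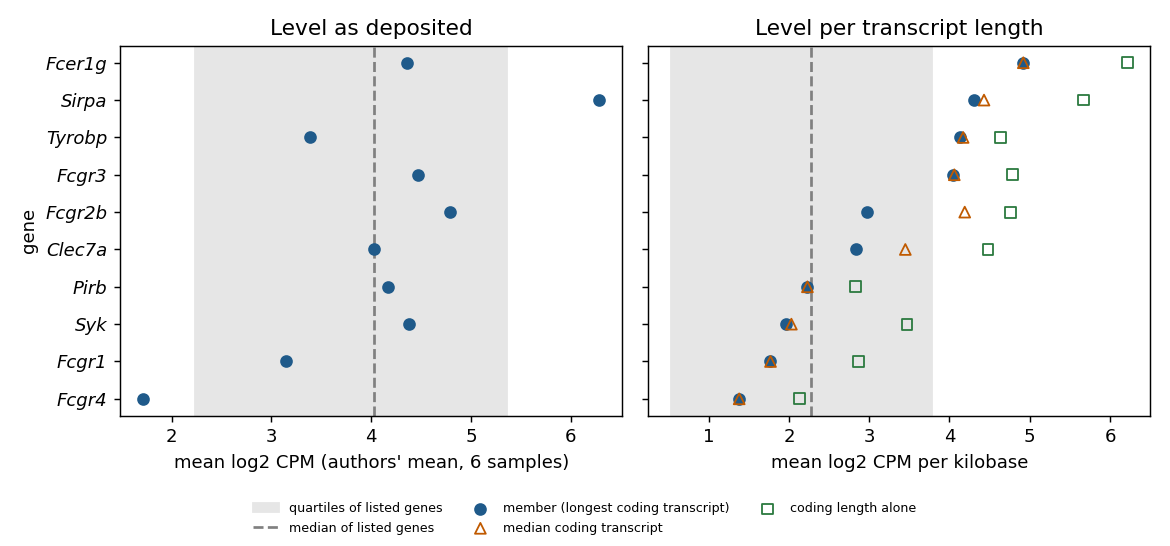
Mean level of each of the 10 genes over 6 samples, as deposited (left, log2 CPM) and per kilobase (right, log2 CPM per kilobase). Filled points use the longest coding transcript, triangles the median coding transcript and squares the coding length, and the dashed line and grey band are the median and the range between the quartiles of listed genes with the longest coding transcript. Fcer1g is highest and Fcgr4 lowest on the right with each length, while Fcgr2b moves from 2.97 to 4.19 with the median coding transcript.

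Per kilobase, both ITAM adaptors were in the upper part of the genes listed. As deposited, Fcer1g was near the median of listed genes, 4.03 log2 CPM, and Tyrobp was below it. Fcer1g (chromosome 1 of GRCm38, 171229572 to 171234365), the common gamma chain of activating Fc receptors, had a mean of 4.36 log2 CPM. Its transcript is short, at 683 nt, which gave 4.91 log2 CPM per kilobase, a level above that of 87.6% of listed genes. Tyrobp (chromosome 7, 30413760 to 30417585), which encodes DAP12, the adaptor of TREM2 and many other receptors, had a mean of 3.39 log2 CPM. With a transcript of 597 nt this was 4.13 log2 CPM per kilobase, above 79.9% of listed genes. Fcer1g was thus 1.71 times as high as Tyrobp per kilobase, and 2.99 times with the coding length in place of the transcript. The coding length used for Tyrobp, 421 nt, is not a whole number of codons, so the ratio of 2.99 is uncertain.
Neither adaptor transcript shared a 31-base word with another gene. Hcst, which encodes the adaptor DAP10 and lies next to Tyrobp in the RefSeq annotation of GRCm38.p6, was at -0.31 log2 CPM per kilobase, so that Tyrobp was 21.8 times as high. The other listed adaptors, Cd247 of T and NK cell receptors and Cd79b of the B cell receptor, were at -0.85 and -0.66 log2 CPM per kilobase, and Cd79a was not listed.

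Among the activating IgG receptors, Fcgr3 was the highest and Fcgr4 the lowest. Fcgr3 (chromosome 1, 171051174 to 171064935), the low-affinity receptor FcγRIII, had a mean of 4.47 log2 CPM and 4.04 log2 CPM per kilobase. Fcgr1 (chromosome 3, 96282909 to 96293969), the high-affinity receptor FcγRI, had a mean of 3.15 log2 CPM and 1.77 log2 CPM per kilobase. Fcgr4 (chromosome 1, 171018920 to 171029761), the receptor FcγRIV of monocytes, macrophages and neutrophils, had a mean of 1.71 log2 CPM and 1.38 log2 CPM per kilobase. Per kilobase, Fcgr3 was 4.80 times as high as Fcgr1 and 6.30 times as high as Fcgr4. With the other lengths these ratios lay between 3.78 and 4.89 and between 6.30 and 6.41, so the order of the activating receptors was the same with every length tried.
Fcer1g, whose product these receptors share, was 1.83 times as high as Fcgr3 per kilobase. In RefSeq order Fcgr4 lies between Fcgr2b and Fcgr3, so the lowest of the 10 genes has members at 2.97 and 4.04 log2 CPM per kilobase on its sides.

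Fcgr2b, which encodes the inhibitory IgG receptor (chromosome 1, 170958617 to 170976547), could not be placed above or below Fcgr3. Its mean was 4.79 log2 CPM, and its longest coding transcript, of 3544 nt, gave 2.97 log2 CPM per kilobase. On that basis Fcgr3 was 2.10 times as high as Fcgr2b. With the median length of its 4 coding transcripts the ratio of Fcgr3 to Fcgr2b was 0.918, and with the coding length alone it was 1.02. The ratio therefore depended on which transcript is used, which a gene-level mean does not show.
Reads are also a limit for this pair. Of the 31-base words in the longest coding transcript of Fcgr3, 233 of 1317 (17.7%) also occur in Fcgr2b, and Fcgr2b was the only gene that shared any with it. The same 233 words are 7.04% of the words of the Fcgr2b transcript. The pseudoaligner that made these values divides reads from such stretches between the genes by estimation, so the separate levels of Fcgr2b and Fcgr3 are uncertain to that extent.

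**Figure D2:**
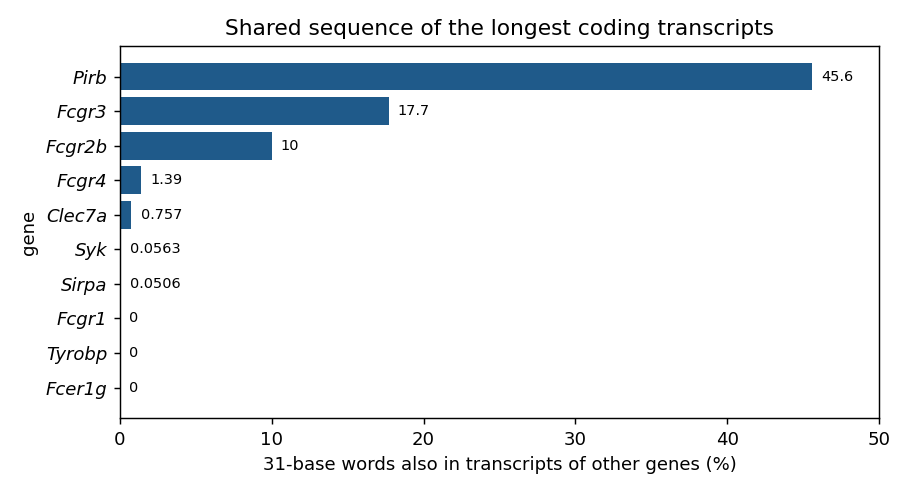
Percent of the 31-base words in each gene's longest coding transcript that also occur, on either strand, in a transcript of another gene of GENCODE M21. Pirb has 45.6% and Fcgr3 17.7%, Fcgr2b comes next, and the other 7 genes lie between 0 and 1.39%.

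The other inhibitory receptors differed from each other in level and in how well they can be measured. Sirpa (chromosome 2, 129592835 to 129632228), which encodes the receptor for the CD47 signal that restrains phagocytosis, had the highest mean of the 10 genes as deposited, 6.29 log2 CPM. Per kilobase it was at 4.30, above 81.7% of listed genes and second to Fcer1g with every length tried. Cd47, which encodes its ligand, was at 3.38 log2 CPM per kilobase. The ratio of Sirpa to Cd47 was 1.88 with the longest coding transcripts and 0.498 with the median coding transcripts, so neither can be placed above the other.
Pirb (chromosome 7, 3711409 to 3720391), which encodes the paired immunoglobulin-like receptor B that binds MHC class I, had a mean of 4.17 log2 CPM and 2.23 log2 CPM per kilobase. This value is uncertain, since 45.6% of the 31-base words in its transcript are found in other genes too, and 1083 of its 3790 words (28.6%) in Gm14548 alone. Pira2, a related activating receptor gene that pairs with the gamma chain and is among the genes sharing its words, was at -0.61 log2 CPM per kilobase, and Pirb was 7.14 times as high. Because of the shared words this ratio is uncertain as well.

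Syk and Clec7a were nearer to the middle of the listed genes. Clec7a (chromosome 6, 129461591 to 129472779) had a mean of 4.03 log2 CPM and 2.84 log2 CPM per kilobase, above 59.9% of listed genes. Lectin receptors that pair with the gamma chain were listed lower than Clec7a. Clec4n, which encodes dectin-2, was at 2.51 log2 CPM per kilobase, Clec4d at 0.71 and Clec4e, which encodes Mincle, at -1.95. The ratio of Clec7a to Clec4n was 1.26, and between 1.44 and 2.00 with the other lengths, while that of Clec7a to Clec4e was 27.7, and between 22.0 and 52.8.
Syk (chromosome 13, 52583173 to 52648792) had a mean of 4.38 log2 CPM, close to that of Fcer1g at 4.36. Its longest coding transcript has 5363 nt, however, and per kilobase it was at 1.96, above 44.4% of listed genes. Per kilobase Fcer1g was 7.73 times as high as Syk, and between 6.73 and 7.73 times with the other lengths.

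The other genes of the pathway had a lower median than the 10 genes. Their lists include lymphocyte genes such as Lck, Cd247 and Cd79b, and were chosen with earlier results of these data known. The lower median therefore depends on which genes were put in the lists. Of the 72 other pathway genes in 8 lists, 59 were listed, with a median of 0.90 log2 CPM per kilobase against 2.28 for all listed genes, and 16 were above the latter. Higher than Fcer1g per kilobase were 2 of them, Fcgrt and C3. Fcgrt, which encodes the neonatal Fc receptor that recycles IgG and is also expressed outside the immune system, was at 4.91, the same as Fcer1g after rounding. C3, the central complement component, was at 4.94.
The Src family kinases, which phosphorylate ITAMs, were all listed (6 of 6), with a median of 1.67 and values from -1.24 for Lck, the kinase of T cells, to 3.46 for Fyn. Lyn, the myeloid and B cell member, was at 2.66, and Syk was at 0.614 times its level per kilobase. Of the genes downstream of Syk 13 of 14 were listed, with a median of 0.90, from -0.02 for Vav3 to 3.55 for Bcl10, which signals from CARD9. The phosphatases and other brakes had 8 of 9 listed and a median of 2.63. Among them Ptpn11, which encodes the widely expressed phosphatase SHP-2, was at 4.38, Ptpn6, which encodes SHP-1 of blood cells, at 2.78, and the adaptor gene Dok3 was lowest at 0.05.

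Most receptors that pair with the adaptors were low, and the highest was Trem2 when the longest coding transcript was used. Of this list 12 of 13 were listed, with a median of -0.48 log2 CPM per kilobase, and 2, Trem2 and Clec4n, were above the median of all listed genes. Trem2, a lipid-sensing receptor of macrophages that signals through DAP12, was at 4.30, and Tyrobp was at 0.891 times its level. With the longest transcript of any kind that ratio was 3.92, so the order of receptor and adaptor rests on the transcript used. The place of Trem2 above Clec4n rests on it too. The lowest of the list was Treml2 at -2.63.
Of the other lectins and inhibitory receptors 11 of 12 were listed, from -0.44 for Siglece to 1.82 for Clec12a, with a median of 0.08, and 0 were above the median of all listed genes. Of 10 other Fc receptor genes 3 were listed. Fcer1a and Ms4a2, the further chains of the IgE receptor of mast cells and basophils that contains the Fcer1g product, were both not listed. The lowest of the 3 was Fcer2a at -1.80. Among ligands and opsonins 3 of 4 were listed, from 3.38 for Cd47 to 4.94 for C3, with a median of 3.95.

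**Figure D3:**
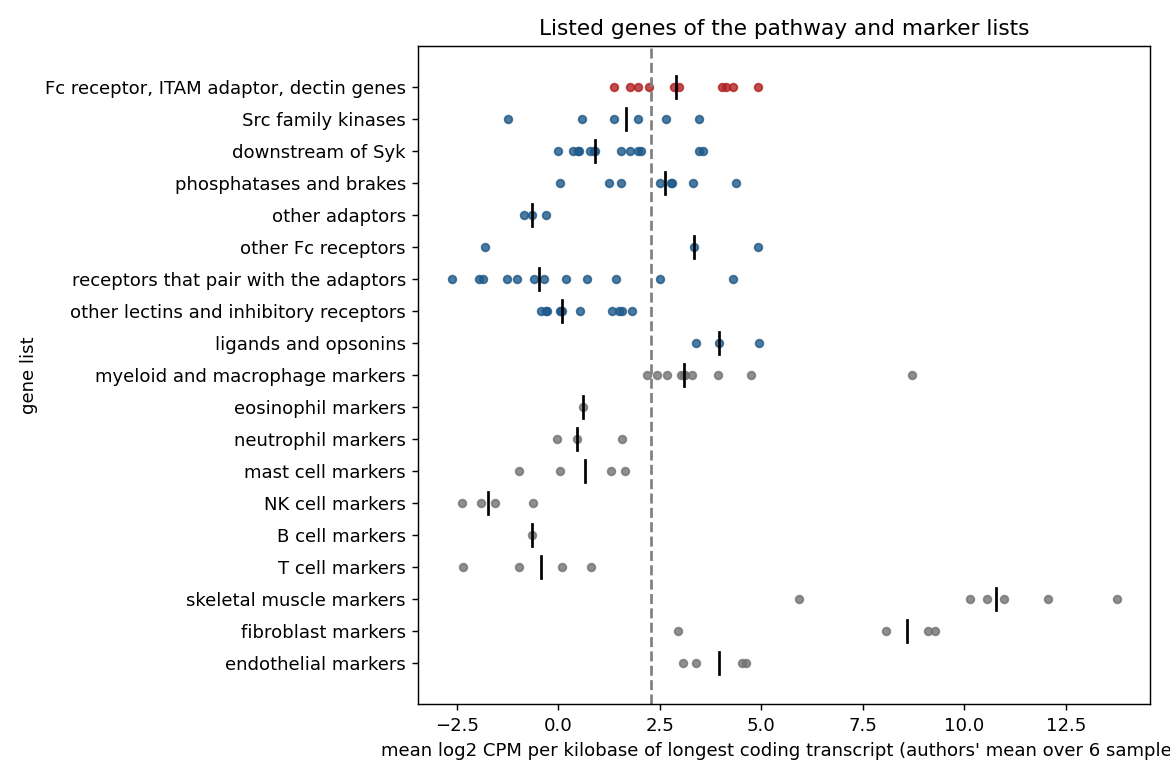
Mean log2 CPM per kilobase of the listed genes of the 10 genes described here (red), the 8 pathway lists (blue) and the 10 cell type marker lists (grey), with 1 point per gene, a black bar at each median and a dashed line at the median of all listed genes. The 10 genes have a median of 2.90, next to 3.10 for myeloid and macrophage markers, and skeletal muscle markers lie farthest to the right with a median of 10.77.

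The cell type markers placed these values in tissue made mainly of muscle. Skeletal muscle markers were all listed (6 of 6) at a median of 10.77 log2 CPM per kilobase, with Acta1, skeletal actin, highest at 13.77. Fibroblast markers had a median of 8.58 and endothelial markers of 3.97. Myeloid and macrophage markers were all listed (10 of 10), from 2.18 for Itgam, which encodes CD11b, to 8.72 for Lyz2, a lysozyme of macrophages and neutrophils, with a median of 3.10.
Markers of eosinophils, neutrophils, mast cells, NK cells, T cells and B cells had lower medians than the myeloid and macrophage markers, while endothelial markers had a higher one. Such medians do not measure how many cells of each type were present. Of 8 eosinophil markers only Ear2 was listed, at 0.61. Of the 6 mice pooled here, 3 are of the eosinophil-deficient strain. Under the filter that the authors describe, a gene expressed only in WT mice had to pass in all 3 of them. The eosinophil markers therefore do not measure eosinophils in WT mice and are not a like comparison with the other markers. Neutrophil markers had 3 of 6 listed, with a median of 0.45 and S100a8 highest at 1.57. Mast cell markers had 4 of 6 listed, with a median of 0.67 and Mcpt4 highest at 1.64. NK cell markers had 4 of 4 listed, with a median of -1.73, T cell markers 4 of 4 with a median of -0.44, and of 4 B cell markers only Cd79b was listed, at -0.66. Which of these cells contributed the reads of the 10 genes was not tested.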

How the data were processed

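Per the paper's methods, the authors used kallisto for pseudoalignment of the paired reads and assigned transcripts to genes in R. The authors then obtained CPM from edgeR, dropped genes that did not exceed 1 CPM in 3 or more samples, and applied a log transform and TMM normalization. Whether kallisto's estimates were scaled for length is not given in the sources used here. If they were, dividing by length again would not be right. The places of genes per kilobase, such as those of the 2 short adaptor genes, would then not hold. The submitters' processing notes name the builds GRCm39 and mm39. The deposited table has 14016 rows, 1 without a symbol, and lists 1198 genes with a mean below 0 log2 CPM. Its log2 values used here are the authors' mean log2 CPM over all 6 samples. Its other columns hold their limma comparison of the genotypes (a log fold change, a moderated t, 2 p-value columns and a log-odds) and were not used.

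The filter cannot be fully checked from means, but the lowest mean in the table was -4.08 log2 CPM. Had that gene passed in as many samples as the filter asks, its remaining samples would have averaged lower still. It is therefore uncertain that the filter was applied as described, and that a gene not listed had failed it. Depth is unknown. Symbols were matched to GENCODE M21 (GRCm38, an older build than that of the study), 13458 directly and 486 through synonyms in RefSeq's GRCm38.p6 annotation. Levels per kilobase used the longest coding transcript (the longest of any kind where none is coding). Shared sequence was the percent of 31-base words of a transcript that another gene's transcripts also hold in either orientation, checked on made-up sequences (Python 3.11.15, pandas 2.3.3). Coding parts were aligned globally without end gap costs (Biopython 1.88). All 10 genes were named, and of the other lists the highest and the lowest gene, and genes named beyond these (such as Lyn, Ptpn6, Clec4n, Clec4d, Clec4e, Pira2) were chosen after their values were seen. Lists and members were chosen with earlier results of these data known. Planned motif counts in the proteins were not made, as no protein sequences were used here.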

Additional observations from a re-analysis of the deposited data

How the results depend on the processing

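No paired analysis was possible because the values used are means over all samples. For the same reason the planned tests of genotype, with another pseudocount, without a filter, without single mice and with the replicate block, were not run, nor were the 2 alternatives for protein motifs. The median level of the 10 genes, 2.90 log2 CPM per kilobase, was 3.76 with the median coding transcript and 4.56 with the coding length alone, since shorter lengths raise every level per kilobase, and it was the same with the longest transcript of any kind. The percent of genes below the members' median place was 61.0%, 60.7% among protein-coding genes and 54.1% among genes with a mean of at least 1 log2 CPM. For the median of the other pathway genes it was 28.9%, and 28.3% among protein-coding genes. The order of the 10 genes was the same with the longest transcript of any kind, 3 of them took another place with the median coding transcript and 6 with the coding length, and above the median of all genes were 6 or 7 of the 10. The median of 4.56 and the 6 changed places with the coding length rest in part on the uncertain coding length of Tyrobp. Fcer1g stayed first, Sirpa second and Fcgr4 last with each length. All of these settings divide by a length, so they do not test whether dividing was right. As deposited, Sirpa was first at 6.29 log2 CPM and Fcgr4 last at 1.71. Fcer1g, at 4.36, was then also below Fcgr2b, Fcgr3 and Syk.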
